A study of Mus musculus with 6 samples.

Results

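Introns of 300 to 1000 nucleotides (nt) that were spliced out of most transcripts, and kept in a small share of them, were described in macrophages grown from mouse bone marrow. JuncBASE, a program that classifies alternative splicing from junction reads, listed 10376 splicing events, 3305 of them retained introns and 1992 of those with a retention level in all 6 libraries. Of these, 528 introns had a mean level over the 6 libraries under 25% and a length in that range. The 524 of them that matched an annotated intron lay in 421 genes, and the other 4 were assigned to no gene. The retention level is the percent of an intron's informative reads that support the unspliced form. The introns were thus selected on their measured level and on their length, so their low level is a description and not a finding.

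The cells were cultured from wild-type C57BL/6 mice that had been exposed to room air (3 libraries) or to cigarette smoke (3 libraries). Marrow freed of erythrocytes was grown in medium with 10% supernatant of L929 cells, which supplies the factor that drives macrophage differentiation, and the macrophages were harvested on day 11. The age and sex of the mice and the smoke dose are not given in the sources used here. The comparison asks whether smoke breathed by the mouse still shows in the splicing of macrophages that matured in culture. Titles number the libraries 1 to 3 in each group, and nothing says outright that each came from a separate animal, so the p-values measure only the spread between these libraries.

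Introns are removed by the spliceosome, which reads a short sequence at the start of the intron, a branch site and a pyrimidine-rich stretch before its end. An intron that stays in the transcript is often read by the ribosome into a premature stop codon, and such transcripts can be destroyed by nonsense-mediated decay or held in the nucleus. In white blood cells of the myeloid line, intron retention is known as a layer of gene control that shifts during differentiation and activation.

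Nearly all of these introns were ordinary annotated introns of coding genes. In GENCODE release 21 for mouse (genome build GRCm38, which is also called mm10), 524 of the 528 had exactly the ends of an annotated intron, and 499 lay between stretches of coding sequence. A further 10 lay in a 5′ untranslated region (UTR), 11 in a 3′ UTR and 4 in non-coding transcripts. First introns made up 29 of them and last introns 100. A GENCODE transcript of the same gene that keeps the intron existed for 127 (24.1%), and an exon of the authors' merged annotation spanned 247 (46.8%). The median length was 552 nt (range 301 to 1000), and 163 (30.9%) had a length that is a multiple of 3, which would keep the reading frame. The last exon base before the intron was G in 78.2% and the first exon base after it was G in 43.9%. On the other strand, 34 introns overlapped another gene, and on the same strand 10 did.

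Intron sequence could be read for 128 of the introns (24.2%), from GENCODE transcripts of any gene that span the intron. These are not a random sample, and no composition is given for the whole set for that reason. Among the 128, 124 began with GT and ended with AG, the usual ends of an intron. Cdca3 and Vps11 each had 1 that began with GC. GC content ranged from 31.1% to 67.0% (median 49.9%), and the pyrimidine share of the 20 bases before the last 2 ranged from 40% to 100% (median 75%). The letters GTGAGT opened 20 of the introns and GTAAGT 16. Over all 647 retained introns with 6 values and a readable sequence, these shares were 14.7% and 10.5%.

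In frame with the exon before them, 122 of the introns could be translated, and each of the 122 met a stop codon inside the intron. The median distance from the first intron base to the first base of that stop was 32.5 nt (range 2 to 423), with 101 stops inside the first 100 nt and 29 inside the first 10. Of the 122, 43 had a length that is a multiple of 3, and these met a stop too. In 103 of them the stop lay over 50 nt before a later exon junction, the position that textbook rules link to nonsense-mediated decay, and 19 were last introns. Of these introns, 6 are shown because the results below turn on them or because they show how early the stop can come. Each line starts with the last 8 exon bases, and the capitals mark the first stop codon in frame.

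Rgs1 intron 2 (chr1:144247968-144248478, minus strand): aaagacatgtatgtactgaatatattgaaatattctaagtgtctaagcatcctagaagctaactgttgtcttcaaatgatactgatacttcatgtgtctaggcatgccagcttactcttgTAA
Ikbkb intron 13 (chr8:22669097-22669606, minus strand): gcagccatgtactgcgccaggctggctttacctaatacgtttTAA
Irf9 intron 6 (chr14:55606609-55607513, plus strand): gaactcaggtgtgtggcctttcTGAccc
Lilrb4a intron 5 (chr10:51493206-51494061, plus strand): tgaagatggtaagTGAgggctcttctag
Gtpbp2 intron 7 (chr17:46165998-46166310, plus strand): tcacccaagTGAgcctgcctctctccct
Top3b intron 14 (chr16:16889612-16890111, plus strand): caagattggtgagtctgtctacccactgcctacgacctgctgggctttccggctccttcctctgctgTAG

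The stop began at intron base 113 in Rgs1, 35 in Ikbkb, 15 in Irf9, 6 in Lilrb4a, 2 in Gtpbp2 and 60 in Top3b, counting the first intron base as 1. In Gtpbp2 and Lilrb4a the splice site itself supplies part of the stop or abuts it.

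**Figure D1:**
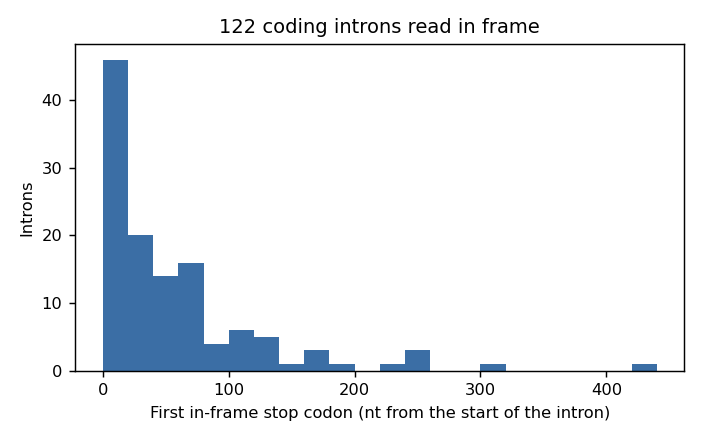
Distance from the first base of the intron to the first in-frame stop codon (x axis, nt, bins of 20) against the number of introns (y axis), for the 122 introns that could be read in frame. Most stops lie near the start, with 101 of 122 in the first 100 nt, and the farthest is at 423 nt.

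Another pair is shown for its rare splice ends. Introns that begin with ATATCC and end with AC are a class of those that the minor spliceosome removes. Sms intron 6 (chrX:157460417-157461175, minus strand) and D10Jhu81e intron 6 (chr10:78162719-78163396, minus strand) had both ends, and no other of the 647 retained introns with a sequence did. Introns with other ends were not sorted by spliceosome here, and GTATCC opened 3 of the 128 and 5 of the 647. Sms encodes spermine synthase. Capitals mark the first 8 and the last 2 intron bases, with exon bases outside them.

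Sms intron 6, start: tggtagagATATCCTTtactgtataagaaa
Sms intron 6, end: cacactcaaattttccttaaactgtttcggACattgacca
D10Jhu81e intron 6, start: gtgtgaccATATCCTTtctggtagctgggt
D10Jhu81e intron 6, end: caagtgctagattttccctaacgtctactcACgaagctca

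Sms intron 6 was kept at 17.6%, 19.5% and 11.6% in the room air libraries and at 7.69%, 14.3% and 6.35% in the smoke libraries. Smoke library 2 lay inside the room air range, so the groups overlapped. D10Jhu81e intron 6 was at 5.26% in room air library 3 and at 0% in the other 5 libraries.

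Before the groups are compared, 1 property of the libraries has to be given. Read counts were not used and depth is unknown, but the number of events without a value differed widely. Of 10376 events, 4169 had no value in smoke library 1, against 189 and 50 in smoke libraries 2 and 3 and between 1 and 398 in the room air libraries. A further 360 introns of the same length and level were not taken because a value was missing, and 327 of them lacked it in smoke library 1. The cells carried macrophage markers: the authors' deposited table lists all 10 genes of the marker list, which summed to 57436.5 normalized counts for room air and 58343.6 for smoke. Markers of neutrophils (5 of 10 listed), B cells (4 of 6), T cells (Cd4 alone, of 6), erythroid cells (1 of 7), stromal cells (6 of 6) and dendritic cells (4 of 6) summed to at most 44.5 normalized counts in either group of that table. Ly6g, Cd3e and Hbb-bs were not among those listed. The stromal sum was 44.5 in room air and 10.3 in smoke in the authors' deposited table, and its part in the results was not tested.

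Retention was lower in every smoke library than in every room air library when averaged over the 528 introns. The library means were 8.02%, 9.48% and 7.37% in room air and 2.39%, 3.42% and 5.45% in smoke. Averaged over libraries, room air stood at 8.29% ± 1.08 (SD, n = 3) and smoke at 3.75% ± 1.56 (SD, n = 3). The difference, smoke minus room air, came to -4.54 percentage points and left smoke at 45.3% of the room air level. The lowest p that an exact two-sided permutation test of 3 against 3 can reach is 0.1, and no p is given for a mean over introns that were chosen with these data in view.

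The smoke libraries also differed among themselves in how often an intron was at exactly 0%. In smoke library 1, 378 introns (71.6%) were at 0%, in smoke library 2 283 (53.6%) and in smoke library 3 74 (14.02%). In the room air libraries 78 (14.8%), 10 (1.89%) and 40 (7.58%) were. Smoke library 3 was thus close to room air library 1 in its share of introns at 0%, while its mean level was below that of every room air library. In 56 introns (10.6%) all 3 smoke libraries were at 0%, against 9.09% of retained introns and 4.70% of all events. All 3 room air libraries were at 0% in none of the 528, in 2 of the 1992 retained introns and in 103 of 5933 events with 6 values. An intron at 0% in all 3 smoke libraries has a mean above 0 only through its room air values, so this asymmetry is a description. Smoke library 1 was at 0% in 63.3% of retained introns and 33.8% of all events. The part of sequencing depth in these zeros was not tested.

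**Figure D2:**
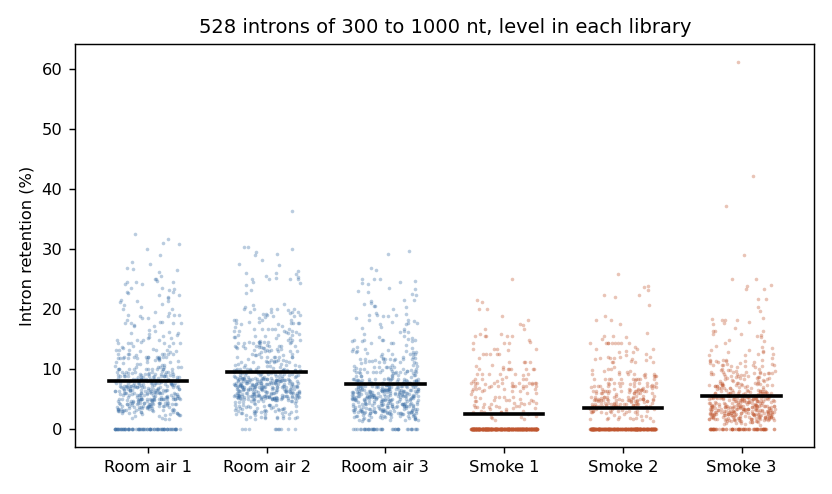
Retention level (y axis, %) of the 528 introns in each of the 6 libraries (x axis), 3 from room air and 3 from smoke. The library means lie between 7.37% and 9.48% in room air and between 2.39% and 5.45% in smoke, and smoke libraries 1 and 2 have most of their introns at 0%.

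Intron by intron, 510 of the 528 (96.6%) had a lower mean in smoke and 18 a higher one. The median of the 528 differences was -4.255 percentage points. A lower mean in smoke was found for 67.3% of all events with 6 values and for 92.5% of all retained introns with 6 values, so the share here is near that of retained introns in general. All 3 smoke values lay below all 3 room air values for 233 introns (44.1%), against 19.3% of all events and 38.7% of retained introns. The reverse order was seen for 1 intron, in Rnf213 (background 3.84% of events and 0.251% of retained introns).

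No single intron passed the test. With limma on log2 odds of retention over all 10376 events, 0 of the 528 introns, and 0% of all events, had a Benjamini-Hochberg adjusted p under 0.05, and the lowest adjusted p was 0.128. At an unadjusted p under 0.05, limma gave 178 introns lower in smoke (33.7%) and 1 higher. Among those with 6 values, 11.3% of events and 25.7% of retained introns were lower in smoke at that p. Over all 10376 events, with or without 6 values, 9.29% were lower and 1.55% higher. Over all 3305 retained introns 20.8% were lower. The authors' deposited JuncBASE table had a corrected p of 1 for each of the 528 introns, and 17 (3.22%) had an unadjusted p under 0.05 there, against 4.15% of all events. Leaving out smoke library 3 raised the adjusted limma calls to 153, all but 1 lower in smoke, and 141 of these introns were at 0% in both remaining smoke libraries. In the same fit 1131 of all events (10.9%) passed. The unadjusted count was 95 without room air library 2 (6.43% of all events) and 108 without smoke library 1 (7.65%).

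**Figure D3:**
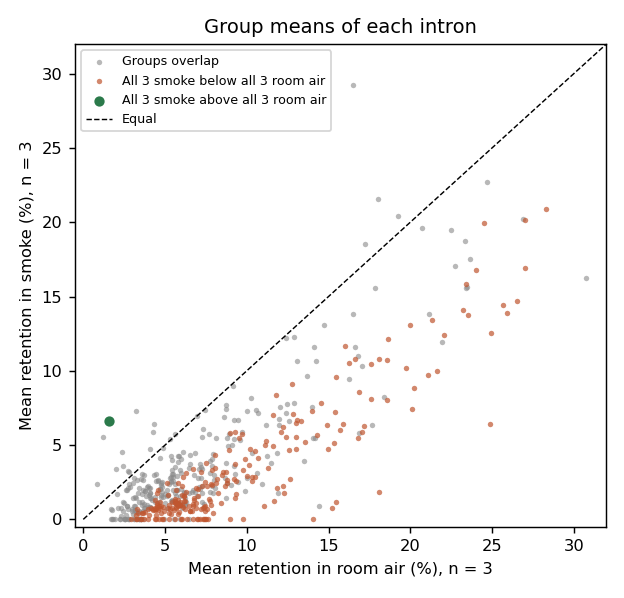
Mean retention of each intron in room air (x axis, %, n = 3) against its mean in smoke (y axis, %, n = 3), with a dashed line where both are equal. Of the 528 introns, 510 lie below the line, the 233 whose smoke values all lie below their room air values are coloured, and Rnf213 is the 1 intron whose smoke values all lie above.

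The introns with the lowest p in limma were at 0% in all smoke libraries. Ppm1m intron 4, in a gene for a metal-dependent protein phosphatase (chr9:106196889-106197226), was kept at 12.5%, 18.5% and 11.1% in room air and at 0% in each smoke library. Map3k3 intron 13, in the gene for the kinase MEKK3 (chr11:106151141-106151617), was at 7.69%, 9.43% and 9.76% in room air and at 0% in smoke. Insig1 encodes an endoplasmic reticulum protein that restrains sterol synthesis, and its intron 3 (chr5:28074649-28075061) was at 7.32%, 7.50% and 7.55% in room air and at 0% in smoke. The groups did not overlap in any of these, and the room air values of Insig1 lay closest together.

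Map4k4 intron 21 (chr1:40010678-40011649), in another kinase gene of the MAP kinase cascade, was at 5.56%, 7.89% and 7.41% in room air and at 0% in smoke. Dcxr, a carbonyl reductase gene, kept intron 2 (chr11:120726566-120726998) at 5.88%, 6.67% and 9.52% in room air and at 0% in smoke. These 5 introns shared the adjusted p of 0.128 in limma, with log2 odds differences between -4.10 (SE 0.46) for Ppm1m and -3.08 (SE 0.43) for Map4k4. The other 5 of the 10 lowest were in Aaas (a nuclear pore protein), Ncapd2 (a condensin subunit), Emc4 (a membrane protein insertion factor), Kif23 (a kinesin of cell division) and Arhgap4 (a GTPase activator). Their room air values ranged from 4.35% to 10%, and each was at 0% in all smoke libraries, with adjusted p-values of 0.141 to 0.155 in limma. A fitted log2 odds difference against libraries at 0% depends on the pseudocount of 1 percentage point and bounds nothing.

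Rnf213 intron 50 (chr11:119468081-119468817) went the other way. Rnf213 encodes a very large ubiquitin ligase of innate defence and blood vessel biology. The intron was kept at 1.61%, 1.67% and 1.39% in room air and at 7.14%, 5% and 7.69% in smoke, so all smoke values were higher and the groups did not overlap. The log2 odds difference was 1.63 (SE 0.44), with a limma p of 0.00847 and an adjusted p of 0.256. Its host gene fell by 0.54 on the log2 scale (SE 0.15, adjusted p 0.0123) according to the authors' deposited table.

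The next introns on the higher side had overlapping groups. Gak, a kinase of clathrin uncoating, kept intron 25 at 0%, 1.72% and 1.92% in room air and at 10%, 4.76% and 1.85% in smoke. Top3b intron 14, in a topoisomerase gene, was at 0%, 9.68% and 0% in room air and at 8.33%, 8.33% and 5.13% in smoke. Cdkn2c intron 1, in the 5′ UTR of the gene for the cell cycle inhibitor p18, had the largest positive difference, set by 1 library: it was at 15.4%, 19.5% and 14.6% in room air and at 13.3%, 13.3% and 61.1% in smoke. Without smoke library 3 its log2 odds difference was -0.33. Imp4 intron 3 was at 0% in 2 room air libraries and 1 smoke library. The other 13 of the 18, among them introns of Tnf and Snrnp70 and 2 of Psmb9, differed by between 0.0967 and 3.57 percentage points.

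**Figure D4:**
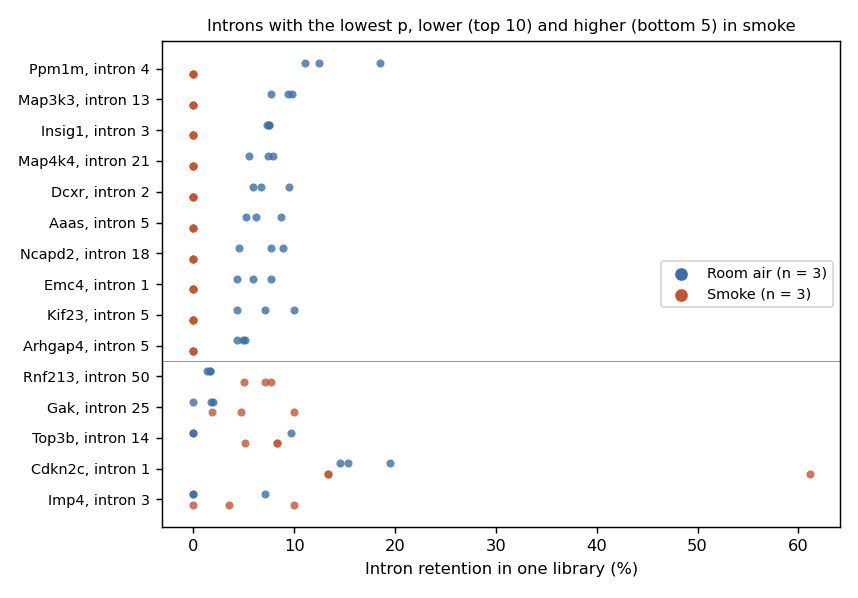
Retention (x axis, %) in single libraries of the 10 introns with the lowest p that were lower in smoke and the 5 that were higher (y axis). Room air and smoke libraries (3 each) are points of different colour. The upper 10 sit at 0% in every smoke library, and of the lower 5 only Rnf213 has groups that do not overlap.

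Some introns were kept in every library. Sirpa encodes the receptor by which macrophages recognise CD47 on cells to be spared. Its intron 1, in the 5′ UTR, had the highest mean of all 528, at 26.8%, 28.9% and 29.1% in room air and 18.8%, 22.2% and 21.7% in smoke, all smoke values lower. Ntan1 intron 9, in an amidase gene that overlaps Pdxdc1 on the other strand, was at 24.4%, 24.5% and 24.6% in room air and at 18.2%, 22.2% and 19.5% in smoke, again without overlap. Msrb1, a methionine sulfoxide reductase gene, kept intron 4 at 22.2%, 17.9% and 17.6% in room air and at 17.4%, 23.7% and 20.2% in smoke. Here the groups overlapped throughout.

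The smallest differences at a mean of at least 10% were in Lat2, Ndufs8 and Ncapg. Lat2, an adaptor of immune receptor signalling, kept intron 6 at 14.7%, 13.7% and 8.77% in room air and at 15.4%, 12.8% and 8.40% in smoke. Intron 1 of Ndufs8, a subunit gene of respiratory complex I, was at 17.6%, 14.3% and 6.67% in room air and at 15.4%, 12% and 9.52% in smoke. Ncapg intron 20, which overlaps Lcorl on the other strand, was at 20%, 29.4% and 12.8% in room air and at 7.69%, 9.09% and 42.1% in smoke, so its small difference of means hides a wide spread. The groups overlapped in all 3.

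At the upper threshold, Sirpa (24.6%), Thyn1 (23.7%) and Nfya (23.6%) were just inside, by their mean over 6 libraries. Retained introns of Cd68 (28.5%), Hnrnph1 (28.8%) and Tcirg1 (29.6%) of the same length range were just outside. The shortest intron inside was in Card9 (301 nt) and the longest in Cc2d1b (1000 nt), and introns of Spsb2 (299 nt) and Dpm2 (1001 nt) were just outside. The lowest mean was that of Cyth2, 0.833%.

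Among genes of innate sensing and signalling, 14 held 19 of the introns, and 17 of the 19 had a lower mean in smoke. In 9 (47.4%) the groups were fully separated with smoke lower, which compares with 44.1% of the 528 introns, 38.7% of retained introns and 19.3% of all events. The median difference was -4.13 percentage points, against -4.255 over the 528 introns and -1.95 over all events with 6 values. Intron 13 of Ikbkb, the gene for a kinase that activates NF-kB, was at 10%, 19.4% and 16.1% in room air and at 0%, 0% and 2.38% in smoke. Intron 8 of Card9, an adaptor behind receptors for fungal sugars, was at 9.09%, 5.88% and 3.23% in room air and at 0% in each smoke library. Irf9 encodes the DNA-binding part of the factor that type I interferon activates, and its intron 6 was at 9.09%, 7.02% and 6.52% in room air and at 0%, 0% and 2% in smoke. In all 3 introns the groups did not overlap, and the limma adjusted p-values were 0.159 for Ikbkb and 0.186 for Irf9, with Card9 lower than Ikbkb at 0.155. Intron 1 of Tnf, the gene for an inflammatory cytokine, was among those with a higher mean in smoke, at 0%, 4.55% and 11.4% in room air and at 6.25%, 6.9% and 3.12% in smoke, with overlapping groups.

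Interferon-stimulated genes held 9 of the introns in 7 genes, 7 of them with a lower mean in smoke and 2 (22.2%) without overlap between the groups, about the 19.3% of all events and below the 44.1% of the 528 introns, and their median difference was -3.48 percentage points. Intron 8 of Uba7, the enzyme that activates the ubiquitin-like protein ISG15, was at 31.0%, 25.9% and 20.8% in room air and at 14.3%, 9.09% and 18.4% in smoke, without overlap. Intron 8 of Trim25, a ubiquitin ligase of RNA sensing, was at 6.85%, 4.90% and 3.79% in room air and at 0%, 1.64% and 3.26% in smoke, again without overlap. Tap1 intron 4, in a subunit gene of the peptide transporter of antigen presentation, was at 3.03%, 2% and 6.38% in room air and at 0%, 0% and 2.33% in smoke, with overlap. Antigen presentation genes held 2 introns, those of Tap1 and H2-Q4, both with a lower mean. H2-Q4 belongs to a family of near-identical genes, so its reads are uncertain.

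Genes of splicing factors and their kinases held 17 introns in 14 genes, of which 16 had a lower mean in smoke. In 8 (47.1%, near the 44.1% of the 528 introns) the groups did not overlap, against 38.7% of retained introns and 19.3% of all events. The median difference was -4.84 percentage points. Intron 8 of Ptbp1, a repressor of splicing that binds pyrimidine stretches, was at 3.85%, 6.38% and 2.86% in room air and at 0%, 0% and 1.85% in smoke. This intron overlaps Plppr3 on the other strand. Intron 7 of Hnrnpa2b1, an RNA-binding protein gene, was at 3.23%, 8.14% and 6.02% in room air and at 0%, 0% and 2.86% in smoke. Hnrnph1 intron 14 was at 9.48%, 10.4% and 7.91% in room air and at 3.45%, 2.86% and 4.89% in smoke, above 0 in every library. The groups did not overlap in these 3. The exception was intron 7 of Snrnp70, a protein of the U1 particle, at 14.3%, 18.6% and 18.8% in room air and at 21.4%, 18.8% and 15.4% in smoke.

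Lysosome and autophagy genes held 13 introns in 8 genes, all with a lower mean in smoke and a median difference of -4.62 percentage points. In 5 of them (38.5%) the groups did not overlap, against 38.7% of retained introns and 19.3% of all events. Intron 9 of Cln3, a lysosomal membrane protein gene in which Mir7059 lies on the same strand, was at 6.90%, 8.51% and 8.33% in room air and at 0%, 0% and 1.33% in smoke. Intron 1 of Naglu, an enzyme of heparan sulfate breakdown, was at 8.33%, 7.27% and 6.38% in room air and at 0%, 0% and 2.20% in smoke. In both genes the smoke values lay below all room air values. Chromatin and transcription regulators held 11 introns in 9 genes, all with a lower mean, with a median difference of -4.41. In 7 (63.6%) the groups did not overlap, against 44.1% of the 528 introns, 38.7% of retained introns and 19.3% of all events. These differences in share were not tested. In that list Dpf2 intron 4, in a subunit gene of the BAF remodelling complex, was at 4.35%, 5.13% and 3.85% in room air and at 0% in each smoke library.

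Other lists held fewer introns. Mitochondrial enzymes and translation factors held 7 introns in 6 genes, all with a lower mean and a median difference of -2.32 percentage points. In 3 (42.9%, near the 44.1% of the 528 introns) the groups did not overlap, against 38.7% of retained introns and 19.3% of all events. DNA repair and replication genes held 3 introns, of which that of Top3b was higher in smoke. Trp53 intron 10, in the gene for the tumour suppressor p53, was at 6.67%, 9.59% and 8.20% in room air and at 0%, 2.94% and 5.15% in smoke, without overlap. Of the decay factors, Pnrc2 held 1 intron, in the 5′ UTR, at 10%, 7.84% and 5.45% in room air and at 0%, 0% and 3.77% in smoke. None of these lists was tested as a list.

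Most genes held 1 intron of the set (343 genes), 59 held 2, 15 held 3, 3 held 4 and Stab1 held 6. Stab1 encodes stabilin-1, a scavenger receptor of macrophages. Its introns 48 and 45 were kept at 6.67%, 12.4% and 12% and at 5.36%, 13.1% and 9.90% in room air. In smoke the same introns were at 0%, 2.94% and 5.56% and at 0%, 6.25% and 1.25%. Intron 37 was at 2.94%, 8.33% and 3.39% in room air and at 0% in each smoke library, and here, as in intron 48, the groups did not overlap. Introns 22 and 20 had means lower by 5.59 and 4.39 percentage points in smoke with overlap, and intron 5 differed by -0.65. Introns of 1 gene share its transcripts and are not independent.

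Gtpbp2, which encodes a GTP-binding protein linked to the rescue of stalled ribosomes, held 4 introns that all had a lower mean in smoke. Intron 3 was at 12.5%, 13.6% and 10.4% in room air and at 0%, 0% and 6.82% in smoke, and intron 7, shown above with its stop at base 2, at 8.82%, 12.3% and 9.43% against 4.55%, 6.45% and 3.23%. Neither overlapped, whereas introns 9 and 10 did. In Cmtr1, a gene for an enzyme that methylates the mRNA cap, intron 19 was at 11.4%, 15.6% and 10.3% in room air and at 11.1%, 6.25% and 5.95% in smoke. The other 3 Cmtr1 introns differed by between -4.71 and -0.673 percentage points. The groups overlapped in all 4, and introns 17, 19 and 20 lie opposite Ccdc167 on the other strand.

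A separate table of retained introns, made by the authors with rMATS from junction and intron-body reads, held 80 of the 528 introns at identical coordinates (15.2% of the introns and 2.06% of the 3887 in that table). It does not say which group its set 1 and set 2 are, so its direction is given by set. Of the 80, 43 (53.8%) had in the authors' deposited rMATS table a false discovery rate under 0.05, against 14.5% of the table, and all 43 were higher in set 1 (13.8% of the table were called in that direction). Their differences in that authors' deposited table ranged from 2.2 to 15.4 percentage points, with a median of 5.7. By JuncBASE all 43 had a lower mean in smoke, as did 76 of the 80 and 96.6% of the 528. In 24 of the 43 the JuncBASE groups did not overlap, against 44.1% of the 528, 38.7% of retained introns and 19.3% of all events. The labels name both tables for these libraries, and they are not taken as independent measurements.

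The lowest false discovery rate among the 80 in the authors' deposited rMATS table was 8.89e-07, for Arrb2 intron 2, with a set 1 minus set 2 difference of 8.4 percentage points. Arrb2 encodes beta-arrestin 2, which ends signalling by G-protein-coupled receptors. By JuncBASE the intron was at 10.96%, 14.5% and 12.96% in room air and at 7.69%, 4.48% and 9.17% in smoke, above 0 in every library. Rgs1, which shortens the signals of such receptors in white blood cells, kept intron 2 at 11.9%, 14.3% and 6.92% in room air and at 0%, 2.70% and 0% in smoke. In the authors' deposited rMATS table its difference was 7.4 percentage points (false discovery rate 1.29e-06). The groups did not overlap in either intron.

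Intron 5 of Lilrb4a, an inhibitory receptor of myeloid cells, was at 24.7%, 24.03% and 23.3% in room air and at 14.8%, 17.4% and 18.2% in smoke, the tightest room air values among these 5. Lilrb4a is assigned with 1 other gene to the same intron and has close copies, so its reads are uncertain. Lyl1 intron 1, in the 5′ UTR of a transcription factor gene of blood cells, was at 13.8%, 14.7% and 11.5% in room air and at 2.17%, 8.16% and 9.56% in smoke. Intron 1 of Ccl4, the chemokine MIP-1 beta, was at 10%, 12% and 11.3% in room air and at 2.50%, 7.50% and 4.96% in smoke. Their differences in the authors' deposited rMATS table were 8 percentage points for Lilrb4a, 8.8 for Lyl1 and 6.1 for Ccl4. None of the 3 overlapped between groups by JuncBASE.

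The genes that hold the introns were well expressed, with a median room air mean of 453.7 normalized counts (range 47.0 to 13515) in the authors' deposited table, against 142.0 for all tested genes. Of the 421, 36 (8.55%) had an adjusted p under 0.05 in the authors' deposited table (background 7.69%). They were 27 that rose after smoke (background 4.15%) and 9 that fell (background 3.53%). The median log2 fold change of the 421 in the authors' deposited table was 0.06. These are levels of bulk RNA, in which fewer cells of a type and less RNA per cell cannot be told apart.

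Of 33 introns in genes that rose, 32 had a lower mean in smoke (median difference -3.54 percentage points), and of 15 in genes that fell, 14 did (median -4.84). Both counts are near the 96.6% of the 528 introns and the 92.5% of retained introns. Plaur, the urokinase receptor gene, rose most: the authors' deposited table gives it a fold change of 1.88 on the log2 scale (SE 0.28, adjusted p 1.34e-07). Its intron 6 was at 0%, 8% and 0% in room air and at 0%, 0% and 2.62% in smoke, too close to 0 in most libraries for a difference to be read. Tmem147, Pafah1b3 and B3gat3 came next, with log2 rises of 0.654, 0.645 and 0.611 in the authors' deposited table. Their introns had a lower mean in smoke, and in none were the groups fully separated. Nfkbia, which encodes the NF-kB inhibitor that NF-kB itself induces, rose less than these. Its log2 rise in the authors' deposited table was 0.56 (SE 0.15, adjusted p 0.00967). Intron 5 of Nfkbia was at 2.86%, 3.57% and 6.90% in room air and at 0%, 0% and 0.78% in smoke, without overlap.

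On the lower side, Clk1, a kinase of splicing factors, fell by 0.68 on the log2 scale of the authors' deposited table (SE 0.17, adjusted p 0.00508). Its intron 12 was at 3.8%, 2.22% and 5% in room air and at 0%, 5.41% and 2.56% in smoke, with overlap. Trim12a, of a family with close copies whose reads are uncertain, fell by 0.51 in the authors' deposited table (SE 0.11, adjusted p 0.000388), and its intron 7 was at 5.41%, 13.2% and 11.1% in room air and at 0%, 0% and 5.77% in smoke. Stab1, described above, fell by 0.61 in the authors' deposited table (SE 0.16, adjusted p 0.00561). Across 524 introns, Spearman's rank correlation of the host log2 fold change with the retention difference was 0.133, a description only, since introns share libraries and genes.

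The smoke mean was the lower one in each of 4 bins of retention level. For the 138 introns with a mean under 3%, the group means were 3.57% in room air and 0.792% in smoke. For the 171 introns of 3% to 5% they were 5.91% and 1.75%, for the 140 of 5% to 10% 9.74% and 4.29%, and for the 79 of 10% to 25% 19.1% and 12.3%. The bins are cut on the mean over the 6 libraries, the value that also selected the introns, and that mean limits how far the groups can differ, so nothing is read from the order of the differences across bins. In the 118 introns that were above 0% in all 6 libraries, where no value is 0, the means were 15.1% ± 1.35 and 9.84% ± 1.40 (SD, n = 3 each). Of these 118, 113 (95.8%) had a lower mean in smoke, near the 92.5% of retained introns and above the 67.3% of all events. In 66 (55.9%) the groups did not overlap, against 38.7% of retained introns and 19.3% of all events.

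The difference was similar across lengths within 300 to 1000 nt. In 4 bins of rising length, which held 116, 190, 131 and 91 introns, it was -4.47, -4.68, -4.25 and -4.72 percentage points. Across the 528 introns Spearman's rank correlation of length was 0.00155 with the difference and 0.0803 with the mean level, given as descriptions. Introns with a retained form in GENCODE were kept more in both groups, at 10.1% in room air and 4.96% in smoke, against 7.62% and 3.30% for the 397 annotated introns without one. Last introns went from 8.58% to 4.51% and inner introns from 7.91% to 3.26%. By tertile of host expression, the groups did not overlap in 58 of 175 introns in the lowest (33.1%), 75 of 174 in the middle (43.1%) and 98 of 175 in the highest (56%). The share was 44.1% of the 528, 38.7% of retained introns and 19.3% of all events. Neither the difference between tertiles nor the part of depth at the intron was tested.

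Shorter and longer introns behaved much alike in group means and direction, and the differences between these classes were not tested. The 701 low-retention introns under 300 nt had group means of 8.08% ± 0.873 in room air and 3.98% ± 1.24 in smoke (SD, n = 3 each), with 653 (93.2%) lower in smoke. The 525 over 1000 nt had 7.76% ± 1.19 and 3.58% ± 1.57, with 494 (94.1%) lower. All smoke values lay below all room air values in 44.1%, 38.9% and 36.6% of introns (middle, shorter and longer), against 19.3% of all events. An unadjusted limma p under 0.05 with smoke lower was found for 33.7%, 26.7% and 26.5%, against 11.3% of all events with 6 values. In annotation the 3 classes were mostly alike, with 94.5%, 95.1% and 92.2% of introns within coding sequence and G before the intron in 78.2%, 78.3% and 76.0% (middle, shorter and longer). A retained form was in GENCODE for 24.1%, 52.2% and 9.90% of them. Among the 3941 events of other types with 6 values, such as cassette exons and alternative splice sites, 54.6% had a lower mean in smoke, and the median of their differences was -0.533 percentage points.

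**Figure D5:**
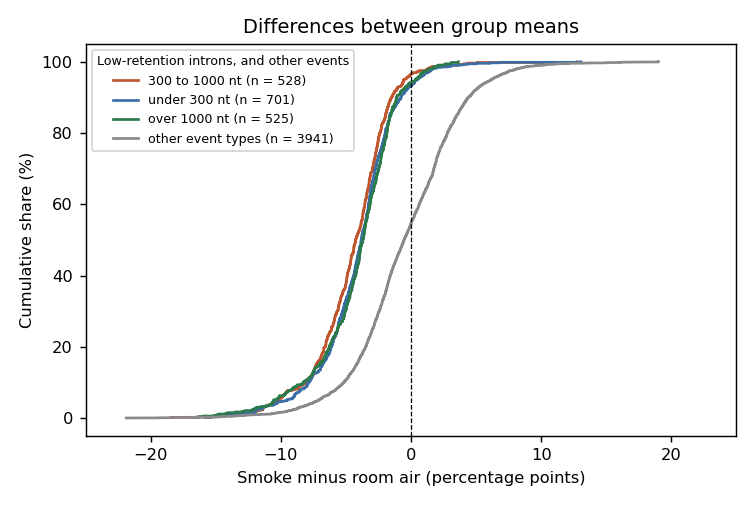
Cumulative share of events (y axis, %) against the difference of group means, smoke minus room air (x axis, percentage points), for low-retention introns of 300 to 1000 nt (528), under 300 nt (701) and over 1000 nt (525) and for other event types (3941). The intron curves lie together and to the left, with 96.6%, 93.2% and 94.1% below 0, and that of other events is centred near 0, with 54.6% below it.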

How the data were processed

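RNA of 3 room air and 3 cigarette smoke macrophage cultures was sequenced from directional libraries, per the labels' protocols. The submitters' processing notes name STAR, DESeq2, SAMtools 1.9, bedtools 2.27.1 and the build mm10. Retention and other events are in the authors' deposited JuncBASE table as a percent per library, with p-values, and the medians and their difference were not used. The authors' gene table holds signal values that are, per the file headers, means of normalized counts per group, with log2 fold changes, a Wald score and adjusted p-values from a fit to 24 libraries, of which 18 are not used here. The rMATS difference in the authors' deposited table is a fraction of other scale, printed here in percentage points, with false discovery rates, which are adjusted p-values, and 6 of its per-library columns were not used, because the groups of its sample sets are not stated. Whether the programs counted by strand is not given in the sources used here.

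Groups came from the sample titles. The introns were matched to GENCODE release 21 and to its transcripts for sequence, frame and splice ends, with no whole genome at hand. Each percent p was put on a log2 odds scale, log2((p + 1)/(100 - p + 1)), and limma 3.58.1 in R 4.3.3 was fitted to all 10376 events with group as the term, two-sided, with Benjamini-Hochberg adjustment. The step was tested on simulated data. Percentages came without read counts, so no interval for counting error and no coverage minimum could be applied. Tables were joined with Python 3.11.15 and pandas 2.3.3. The introns, the gene lists and the tests were chosen with earlier results of these data known. Named were the 10 lowest p in limma among introns lower in smoke and the 5 among higher, introns at the thresholds, the 3 highest minima and 3 smallest differences, up to 3 introns of lowest p per gene list, the 5 lowest rMATS false discovery rates, hosts with the largest changes and genes with the most introns. The further introns of Sms, D10Jhu81e and Gtpbp2 whose sequence is shown, and Tnf and Snrnp70, were named after their values were seen. Some items are not reported here. Alternatives were other pseudocounts, scales, filters, thresholds, a replicate block and leaving out each library.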

Additional observations from a re-analysis of the deposited data

How the results depend on the processing

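The count of introns past an adjusted p of 0.05 in limma was 0. It was 29 with a pseudocount of 0.1 percentage points (2.32% of all events), all 29 at 0% in every smoke library, and 6 when the fit held only events with 6 values (0.388% of those). Leaving out 1 library gave 0 to 153, the 153 without smoke library 3 (10.9% of all events). The unadjusted count of introns lower in smoke, 178, was 64 among the 219 introns with a mean of at least 5% (6.405% of the events in that fit), and 95 to 247 with 1 library left out (95 without room air library 2, 6.43% of all events, and 247 without smoke library 3, 19.6%). The same number marks no shared source in the labels, and deviations of same-numbered libraries had correlations of 0.0177, -0.0404 and -0.0888. Those of libraries with unlike numbers ranged from -0.0720 to 0.127. This gave no sign of pairing by number, which 3 libraries per group are too few to exclude. With the replicate number as a block, the unadjusted count was 109 (6.48% of all events) and 0 introns passed, and not every library correlated best with its own number. The mean difference of -4.54 percentage points was -5.94 at a level of at least 5%. The share of introns lower in smoke was 93.8% when a value in 5 libraries sufficed, and 90.7% to 96.2% with 1 library left out. Groups did not overlap in 109 of 219 introns at 5% or more (49.8%) and in 66 of 118 above 0% throughout (55.9%), the latter chosen after seeing the data, against 44.1% of the 528, 38.7% of retained introns and 19.3% of all events. Host genes past the threshold in the authors' deposited table were 12 at an adjusted p under 0.01 and 6 with at least a 1.5-fold change. A false discovery rate under 0.01 was given to 25 introns in the authors' deposited rMATS table, and 6 had a difference of at least 10 percentage points. Of the 71 named introns, 60 kept their direction in each of the 13 settings that gave a value. Ndufs8 intron 1 turned to -0.0167 with a pseudocount of 5 percentage points and to -0.57 percentage points on the percent scale. With 1 library left out, the log2 odds difference ranged from -0.33 to 1.30 for Cdkn2c intron 1, -0.99 to 0.40 for Thyn1 intron 4, -0.0349 to 0.23 for Msrb1 intron 4, -0.28 to 0.22 for Lat2 intron 6, -0.43 to 0.30 for Ndufs8 intron 1, -1.35 to 0.14 for Ncapg intron 20, -1.10 to 0.63 for Plaur intron 6, -1.30 to 0.0824 for Clk1 intron 12, -1.29 to 0.15 for Stab1 intron 5, -1.60 to 0.0289 for Cmtr1 intron 17 and -1.48 to 0.13 for Cmtr1 intron 22. The cause was not tested. Arms left with 2 libraries rest on few values, and depth at each intron, unknown here, limits every level near 0%.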
